A study of Homo sapiens with 10 samples.

Results

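Translation initiation factors are the proteins that bring the initiator tRNA, the mRNA and the ribosomal subunits together at a start codon. The genes described here are the protein-coding genes whose current symbol begins with EIF1, EIF2, EIF3, EIF4, EIF5 or EIF6, without the exon junction protein EIF4A3, the EIF2AK kinases and Y-linked copies. This rule gave 50 genes, and all 50 were found by Ensembl identifier among the 26346 genes of the deposited files. RNA was sequenced from EndoC-βH1 cells, a human beta cell line that secretes insulin, after exposure to a control siRNA (5 libraries) or to an siRNA labelled siSR#2 against SRp55 (5 libraries). SRp55, the product of SRSF6, is an SR protein that binds exons and guides their splicing. Both groups are 1 cell line grown on coated plates, the knockdown rests on 1 siRNA sequence, and the series' design text calls the 5 preparations independent. The labels give no dose and no time of exposure.

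Initiation starts when eIF2 carries the initiator methionyl-tRNA to the small ribosomal subunit, which also binds eIF1, eIF1A, eIF3 and eIF5. The cap-binding protein eIF4E, the scaffold eIF4G and the helicase eIF4A load the mRNA, while 4E-binding proteins hold eIF4E away from eIF4G until they are phosphorylated by mTOR. eIF2B recharges eIF2 with GTP and is blocked when eIF2 is phosphorylated under stress, a step well known in beta cells because they make large amounts of secretory protein.

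Of these genes, EIF1AX and EIF4H each have a pair of coding transcripts that differ by a cassette exon, and the exon junctions below are shown because they set the shorter and the longer transcript apart. The sequences are from GENCODE 44 transcripts (GRCh38), written 5′ to 3′ in the sense of the gene, and the capitals mark the bases after the junction. The cassette exon of EIF1AX is exon 2 of ENST00000379607, 84 bases at chrX:20138539-20138622 on the minus strand. That of EIF4H is exon 5 of ENST00000265753, 60 bases at chr7:74190247-74190306 on the plus strand.
EIF1AX long transcript, exon 1 to cassette exon 2: tgcccaagaataaagGTAAAGGAGGTAAAA
EIF1AX long transcript, cassette exon 2 to exon 3: aagaggatggtcaggAGTATGCTCAGGTAA
EIF1AX short transcript, exon 1 joined to exon 3: tgcccaagaataaagAGTATGCTCAGGTAA
EIF4H long transcript, exon 4 to cassette exon 5: gaccagatgacagagGAATGGGTAGCTCTC
EIF4H long transcript, cassette exon 5 to exon 6: atgacttcaattctgGCTTCAGGGATGACT
EIF4H short transcript, exon 4 joined to exon 6: gaccagatgacagagGCTTCAGGGATGACT

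Library facts come first. SRSF6 was at 99.5, 99.5, 92.4, 99.7 and 100.0 RPKM (reads per kilobase of transcript, scaled to library size) in control replicates 1 to 5 and at 23.8, 23.4, 25.3, 31.1 and 21.0 RPKM in SRp55 siRNA replicates 1 to 5. This left 25.3% of the control mean, and an exact two-sided permutation test gave p = 0.00794, the smallest that 5 against 5 libraries allow. Reads assigned to transcripts ranged from 61.9 M (M, 10 to the power 6) to 159 M in control and from 94.7 M to 190 M in SRp55 siRNA libraries. Assigned reads made up 74.2% to 90.9% of the total behind the RPKM with control siRNA and 76.8% to 96.5% in SRp55 siRNA libraries, so RPKM values carry this difference. Control replicate 4, with 90.9%, was the highest control library in 32 of 47 tested initiation factor genes, against 47.1% of all tested genes. SRp55 siRNA replicate 5, with 76.8%, was the lowest library of its group in 35 of 47, against 49.8% of all tested genes. At the other end, control replicate 5 (74.2%) was the lowest control in 29 of 47, against 41.5%. SRp55 siRNA replicate 1 (96.5%) was the highest of its group in 21 of 47, against 40.3%. Fits with 1 library left out are therefore given for several of the genes below. Over all genes, 684 were called with all libraries, 1085 without control replicate 4 and 810 without SRp55 siRNA replicate 5. Without control replicate 5 or SRp55 siRNA replicate 1, 268 and 461 were called, with 0 initiation factor genes. The summed level of 10 beta cell markers lay between 12765 and 24888 RPKM with control siRNA and between 18257 and 28339 RPKM after SRp55 siRNA. CHGA and INS made up most of this sum. Of those markers, SLC30A8, a zinc transporter of insulin granules, was called higher and none lower, where 3.76% of all genes were higher and 1.25% lower. At an unadjusted p under 0.05, passed by 21.9% of all genes, INS was also higher and IAPP, PDX1 and NKX6-1 were lower. With the replicate number as a block 1 was higher and 3 were lower (IAPP, PDX1 and NKX6-1), where 13.1% of all genes were called. On summed reads 1 was higher and 3 were lower (IAPP, PDX1 and NKX2-2), where 17.2% were called. With libraries scaled to a common median gene (median-of-ratios scaling) 1 was higher (SLC30A8) and 1 was lower (PDX1), where 6.85% were called. In the list of other islet endocrine cells 0 of 4 tested genes were called (2 at an unadjusted p under 0.05, HHEX and IRX2), and IRX2 was higher with the block. Genes of acinar and duct cells summed to 36.5 to 97.7 RPKM over both groups, with CELA3A, CTRB1, PNLIP and PRSS1 listed at 0 in every library. Markers of mesenchymal, endothelial and immune cells summed to 31.3 to 52.2 RPKM, with CDH5 and CD3E listed at 0. In bulk RNA, fewer cells of a type and less RNA per cell cannot be told apart.

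Initiation factor genes had high levels next to the other genes tested. In control libraries their median was 58.7 RPKM over the 47 tested, against 12.1 RPKM over all tested genes. Of the 50, 14 had a mean above 100 RPKM, 32 lay between 10 and 100 RPKM, and 4 were below 10 RPKM, while 5.17% of all tested genes were above 100 RPKM and 55.6% above 10 RPKM. Gene levels are sums of transcript RPKM and can be set side by side because RPKM is per length. The order of mean control levels began with EIF4G2 (491 ± 64.4 RPKM), EIF4A1 (428 ± 126), EIF1 (304 ± 100), EIF3L (297 ± 65.8) and EIF3C (237 ± 39.3; SD, n = 5). The SD ranges of neighbours in this order overlapped. Within libraries, EIF4A1 was above EIF1 and EIF3L above EIF3C in each control. EIF4G2 and EIF4A1, and EIF1 and EIF3L, changed order between controls, and the order was not tested. The same 5 genes led in SRp55 siRNA libraries. At the low end, 3 genes were below the test minimum, a mean of 0.5 RPKM over all libraries: EIF4E1B, an oocyte-type cap-binding protein, at 0.239 to 0.837 RPKM, and the retrocopies EIF2S3B, at 0.0119 to 0.0492 RPKM, and EIF5AL1, at 0.0394 to 0.0856 RPKM. Apart from these 3 and EIF4EBP3, each gene had at least 1562 estimated reads in each library, except EIF2B3 with a lowest value of 1216.5.

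**Figure D1:**
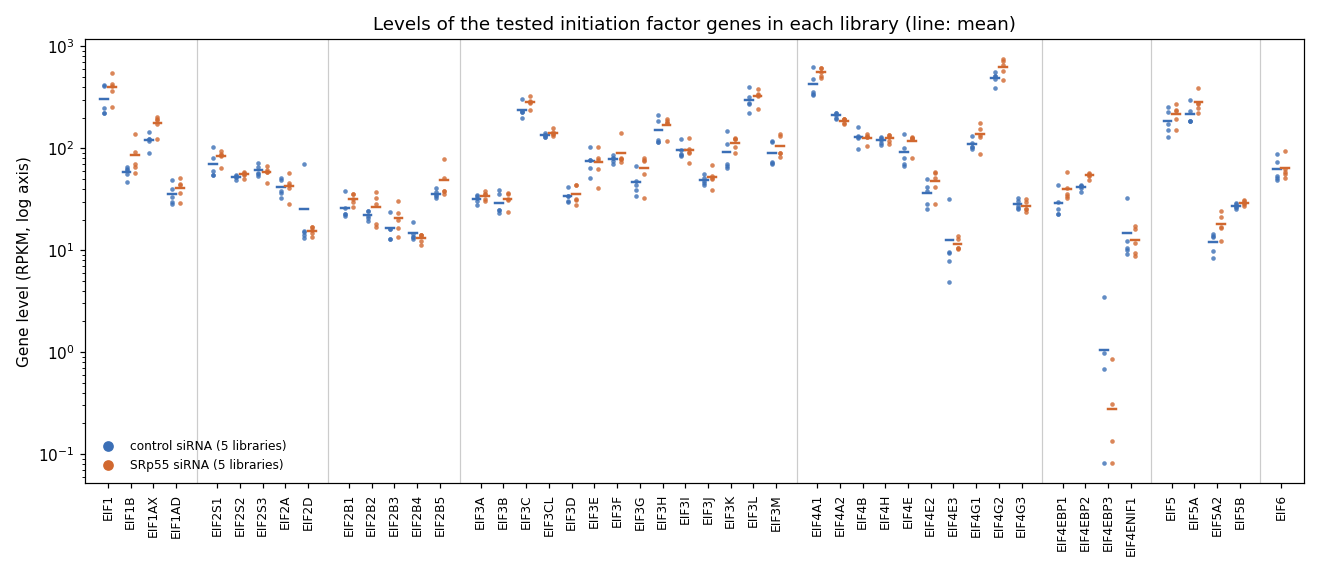
Levels of the 47 tested initiation factor genes in RPKM on a log axis, 1 point per library, with control siRNA in blue, SRp55 siRNA in orange and a line at the mean of 5 libraries. Grey lines part the complexes, values of 0 (EIF4EBP3 in 2 libraries) cannot be drawn, and the 2 groups overlap in every gene except EIF4EBP2.

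With SRp55 siRNA, EIF4EBP2, the 4E-binding protein with the highest level in these cells, was called higher on the values as deposited. No other initiation factor gene passed that test. Relative to the median tested gene EIF4EBP2 rose 1.21-fold. With libraries scaled to a common median gene (median-of-ratios scaling) it was not called (limma adjusted p = 0.0606). The change of each gene was tested with limma on log2(RPKM + 0.5), with Benjamini-Hochberg adjustment over all 13630 genes tested and a threshold of 0.05. On this test 684 genes were called, 5.02% of those tested, of which 3.76% were higher and 1.25% lower with SRp55 siRNA. Among initiation factor genes 1 of 47 was called. At an unadjusted p under 0.05 there were 6 of 47, all of them higher, against 21.9% of all genes tested. Groups did not overlap in 1 of 47, against 7.92% of all genes. The typical tested gene rose by 0.11 on the log2 scale of the deposited values, so log2 fold changes below are relative to the median tested gene. The p-values test the change as deposited, so they count this shift in favour of rises and against falls. On this relative scale 28 of 47 lay above the median gene and 19 below, the median was 0.08, and 46 of 47 were within 0.5 of 0. The standard errors were 0.09 to 0.51 with a median of 0.18. Changes of the size of most of these genes were thus not detectable in this test, which does not pair libraries. With the replicate number as a block, 14 of 47 had an unadjusted limma p under 0.05, against 4506 of all 13630 genes.

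**Figure D2:**
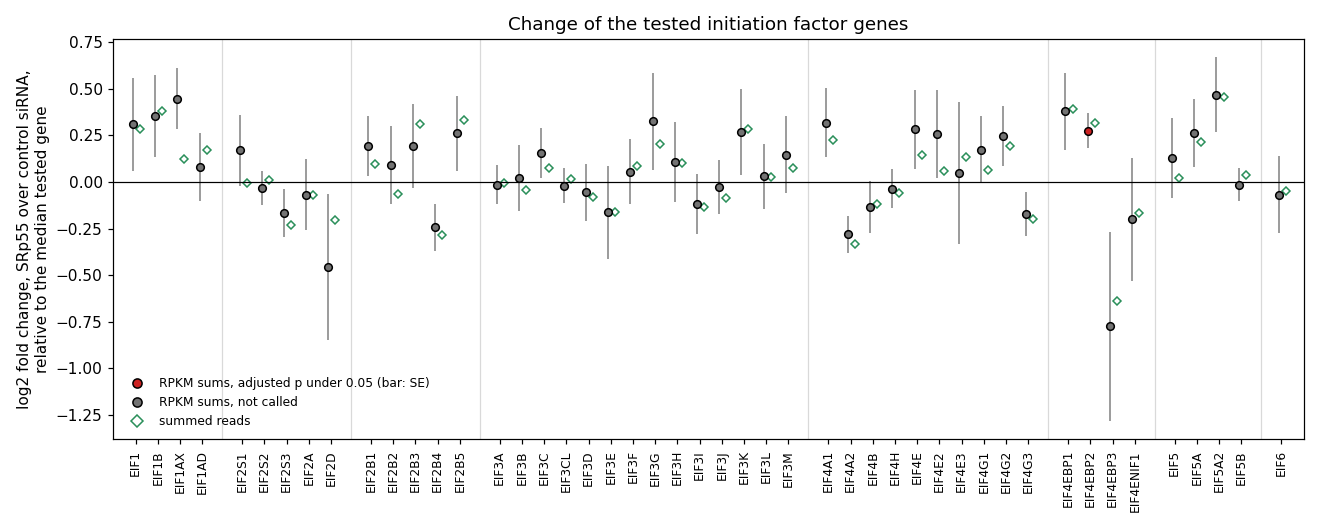
Change of the 47 tested initiation factor genes with SRp55 siRNA on the log2 scale relative to the median tested gene, as sums of RPKM (circles, bars of 1 SE) and as summed reads (green diamonds). Only EIF4EBP2 (red) passed the test on RPKM sums, and EIF1AX shows one of the widest gaps between the 2 scales, 0.45 on RPKM sums against 0.13 on summed reads.

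eIF1 and eIF1A hold the scanning ribosome open and guard the choice of start codon. None of the 4 genes was called, and all 4 lay above the median tested gene, with a median log2 fold change of 0.33. EIF1 was at 409, 224, 246, 417 and 222 RPKM in control replicates 1 to 5 and at 551, 405, 363, 429 and 255 RPKM in SRp55 siRNA replicates 1 to 5. Each SRp55 siRNA library was above the control library of its number, but the groups overlapped widely (log2 fold change 0.31, SE 0.25, limma adjusted p = 0.364). EIF1B, its paralogue, was at 66.2, 56.5, 63.1, 60.9 and 47.0 RPKM with control siRNA and at 140, 66.2, 70.2, 91.3 and 57.5 RPKM after SRp55 siRNA. SRp55 siRNA replicate 1 alone was at more than 100 RPKM, and the change of 0.36 (SE 0.22, limma adjusted p = 0.245) was 0.20 without that library. EIF1 lies within the span of JUP on the opposite strand, and whether the counting used strand is not given in the sources used here. EIF1AD, a relative of eIF1A, changed by 0.08 (SE 0.18).

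EIF1AX encodes eIF1A on the X chromosome (ENSG00000173674.6, GRCh37 chromosome X, 20142636 to 20159962). Its levels were 122, 119, 123, 143 and 90.2 RPKM with control siRNA and 174, 203, 189, 192 and 124 RPKM after SRp55 siRNA. Only SRp55 siRNA replicate 5 fell within the control range, and all 5 pairs of equal number were higher. It changed by 0.45 on the log2 scale (SE 0.16), which missed the threshold (limma adjusted p = 0.0805). With the replicate number as a block it passed (limma adjusted p = 0.0135), where 13.1% of all genes were called. It also passed without SRp55 siRNA replicate 5 (0.0249, where 5.94% of all genes were called) and without control replicate 4 (0.0473, where 7.96% were called). Leaving out any other library did not bring it under the threshold. Over all 10 such fits the change was 0.38 to 0.53, and the limma adjusted p reached 0.169. On summed reads the same gene changed by 0.13 (limma adjusted p = 0.419).

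The files hold 2 EIF1AX transcripts of unequal length, 765 bases for ENST00000379593.1 and 4427 bases for ENST00000379607.5. The short transcript skips the cassette exon shown above and ends at position 20146196 (GRCh37), upstream of the end of the long one at 20142636. The short transcript was at 74.0, 66.8, 67.3, 93.1 and 42.1 RPKM with control siRNA and at 126, 153, 135, 135 and 81.4 RPKM after SRp55 siRNA. The long transcript was at 47.9, 52.2, 56.1, 50.1 and 48.2 RPKM with control siRNA and at 48.4, 49.7, 54.9, 57.1 and 42.3 RPKM after SRp55 siRNA. The higher gene level was thus carried by the short transcript, while the long transcript had nearly the same mean in both groups, 50.9 ± 3.40 and 50.5 ± 5.80 RPKM (SD, n = 5). As a share of the gene, the short transcript held 60.7%, 56.1%, 54.5%, 65.0% and 46.6% in control and 72.2%, 75.5%, 71.0%, 70.2% and 65.8% in SRp55 siRNA libraries. The lowest SRp55 siRNA share was above the highest control share by less than 1 point. The limma diffSplice F test did not call the gene (mean shift of 14.4 points, unadjusted p = 0.00926, adjusted p = 0.326, and 0.167 with the replicate block). These are estimates per transcript. Reads over the junctions were not analysed here, so a change of the cassette exon and a change of the transcript end cannot be told apart.

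**Figure D3:**
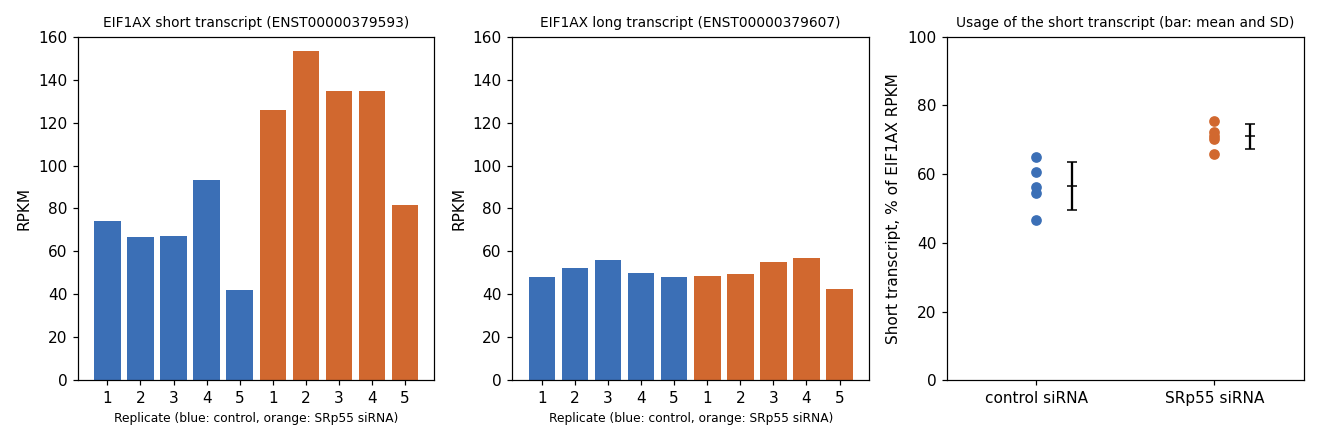
EIF1AX transcripts by library: RPKM of the short transcript (left) and the long transcript (middle) as bars from 0, and the share of the short transcript in percent of EIF1AX RPKM (right, points for libraries, bar for mean and SD of 5). The short transcript is higher in most SRp55 siRNA libraries, the long one lies at 42.3 to 57.1 RPKM in all 10, and the shares of the 2 groups do not overlap.

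eIF2 delivers the initiator tRNA, and EIF2A and EIF2D are carriers that can act without it. None of the 5 tested genes was called, and 4 of 5 were below the median tested gene (median log2 fold change -0.07). EIF2S1, the alpha subunit that stress kinases phosphorylate, was at 80.8, 54.2, 59.5, 102 and 54.9 RPKM with control siRNA and at 86.2, 84.1, 88.8, 94.8 and 63.4 RPKM after SRp55 siRNA. Its groups overlapped, with control replicate 4 the highest of all 10 libraries (log2 fold change 0.17, SE 0.19, limma adjusted p = 0.432). The change was 0.27 without control replicate 4, 0.10 without control replicate 2, and -0.01 on summed reads. EIF2S2, the beta subunit, was among the steadiest of all, at 49.1 to 54.9 RPKM with control siRNA and 49.4 to 58.9 RPKM after SRp55 siRNA. EIF2S3, the gamma subunit, had a mean of 60.6 ± 7.59 RPKM with control siRNA and 58.3 ± 8.02 RPKM after SRp55 siRNA (SD, n = 5), and its reads may be split with the retrocopy EIF2S3B. For EIF2D, control replicate 4 was at 69.9 RPKM while the other 9 libraries lay between 13.3 and 17.0 RPKM, and its change of -0.46 had an SE of 0.39. EIF2A had a change of -0.07 (SE 0.19).

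eIF2B, with 5 subunits, exchanges GDP for GTP on eIF2. None of the 5 genes was called on RPKM sums. EIF2B5, the catalytic epsilon subunit, was at 37.2, 34.4, 32.3, 40.6 and 34.2 RPKM with control siRNA and at 51.2, 35.5, 78.3, 38.5 and 38.3 RPKM after SRp55 siRNA. The log2 fold change of 0.26 (SE 0.20, limma adjusted p = 0.312) was 0.07 without SRp55 siRNA replicate 3. EIF2B5 has an annotated span in the files that covers EIF4G1 and other protein-coding genes such as AP2M1 and PSMD2, so reads of those genes could be split with it. EIF2B1, the alpha subunit, was at 25.8, 21.6, 22.8, 38.1 and 22.6 RPKM with control siRNA and at 31.8, 35.5, 29.5, 35.9 and 26.8 RPKM after SRp55 siRNA. Every SRp55 siRNA library was above every control library but replicate 4. Without that library EIF2B1 was called higher (log2 fold change 0.29, limma adjusted p = 0.047), where 7.96% of all genes were called. No other expression fit called it. With all libraries the change was 0.19 (SE 0.16, limma adjusted p = 0.304). EIF2B4, the delta subunit, named here after its values were seen, was at 13.0, 13.4, 14.4, 18.8 and 13.6 RPKM with control siRNA and at 14.2, 14.2, 11.2, 12.3 and 14.1 RPKM after SRp55 siRNA. It was called lower on summed reads alone (log2 fold change -0.28, limma adjusted p = 0.0261), where 17.2% of all genes were called. On RPKM sums it was not called (-0.24, or -0.14 as deposited, limma adjusted p = 0.567). EIF2B2 and EIF2B3 had changes of 0.09 and 0.19 with SEs of 0.21 and 0.23.

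eIF3 is the largest of the factors and bridges the small subunit to the mRNA and to eIF4G. None of its 14 genes was called, 8 lay above and 6 below the median tested gene, and the median log2 fold change was 0.03. EIF3L, the gene of this complex with the highest level, was at 269, 280, 316, 398 and 221 RPKM with control siRNA and at 380, 323, 340, 335 and 242 RPKM after SRp55 siRNA. Control replicate 4 was the highest and control replicate 5 the lowest of all 10 libraries, and the change was 0.03 (SE 0.17, limma adjusted p = 0.681). The core subunits EIF3A, at 28.0 to 38.0 RPKM over both groups, and EIF3B, at 23.0 to 39.0 RPKM, had changes of -0.02 and 0.02. The widest positive and negative changes of the complex were 0.33 in EIF3G, a subunit needed for scanning (46.4 ± 12.7 against 64.2 ± 19.9 RPKM, SD, n = 5, limma adjusted p = 0.362), and -0.16 in EIF3E. The other subunits lay between -0.12 in EIF3I and 0.27 in EIF3K. EIF3C and EIF3CL are near-identical copies whose reads may be split between them, and on reads EIF3CL stood at 0.946 ± 0.032 of EIF3C in control and 0.910 ± 0.028 in SRp55 siRNA libraries (SD, n = 5).

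The eIF4 genes encode the machinery that binds the cap and unwinds the leader of the mRNA. None of the 10 tested genes was called, with 6 above and 4 below the median tested gene. EIF4A1, the main helicase, was at 476, 341, 356, 628 and 337 RPKM with control siRNA and at 560, 514, 619, 615 and 492 RPKM after SRp55 siRNA. Control replicate 4 was the highest of all 10 libraries, and all 5 SRp55 siRNA libraries, from 492 RPKM upward, were above the other 4 controls, which reached 476 RPKM. Its change of 0.32 on the log2 scale (SE 0.18) was not called (limma adjusted p = 0.204). With 1 library left out the change was highest, 0.42, without control replicate 4. In that fit alone it was called (limma adjusted p = 0.0343), where 7.96% of all genes were called. It was lowest, 0.26, without control replicate 2 (limma adjusted p = 0.383). EIF4A2, its paralogue, named after its values were seen, was at 198, 195, 222, 213 and 224 RPKM with control siRNA and at 178, 195, 195, 173 and 192 RPKM after SRp55 siRNA. It pointed the other way from EIF4A1, with a log2 fold change of -0.28 relative to the median tested gene. As deposited the change was -0.17 (SE 0.10, limma adjusted p = 0.341). With median-of-ratios scaling the change tested was -0.28 (limma adjusted p = 0.196), and on summed reads the limma adjusted p was 0.0609. As a description with no test, the ratio of EIF4A1 to EIF4A2 on RPKM was 2.41, 1.75, 1.61, 2.95 and 1.502 in control and 3.15, 2.63, 3.18, 3.55 and 2.56 in SRp55 siRNA libraries. That ratio was higher in the SRp55 siRNA library of all 5 pairs of equal number, and control replicate 4 alone reached the SRp55 siRNA range.

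EIF4G2 encodes DAP5, an eIF4G relative without the eIF4E-binding part, and had the highest level of all 50 genes. It was at 515, 473, 508, 566 and 393 RPKM with control siRNA and at 573, 721, 750, 657 and 463 RPKM after SRp55 siRNA. All 5 pairs were higher, yet SRp55 siRNA replicate 5 was below 4 of the controls (log2 fold change 0.25, SE 0.16, limma adjusted p = 0.224). EIF4G1, the main scaffold, was at 114, 99.2, 103, 132 and 104 RPKM with control siRNA and at 177, 156, 87.3, 135 and 130 RPKM after SRp55 siRNA. SRp55 siRNA replicate 3 was the lowest of all 10 libraries for EIF4G1, the library in which EIF2B5, the gene that spans it, was highest. The change of EIF4G1 was 0.17 (SE 0.18, limma adjusted p = 0.391), and 0.06 on summed reads. It was 0.32 without SRp55 siRNA replicate 3, and 0.11 without replicate 1 or without replicate 2 of that group. EIF4E, the cap-binding protein, was at 100.4, 70.0, 81.1, 137 and 66.9 RPKM with control siRNA and at 124, 129, 127, 125 and 80.1 RPKM after SRp55 siRNA. In SRp55 siRNA libraries 4 of 5 lay within 123.8 to 129.0 RPKM, below control replicate 4 and above the other controls. Replicate 5 of that group fell among the other controls, so all 5 were inside the control range (log2 fold change 0.28, SE 0.21, limma adjusted p = 0.313). The change was 0.39 without control replicate 4 and 0.21 without control replicate 2. EIF4B and EIF4H, which help the helicase, had changes of -0.13 and -0.04, and EIF4G3, a scaffold relative, one of -0.17. The cap-binding relatives EIF4E2 and EIF4E3 had changes of 0.26 and 0.05, with SEs of 0.24 and 0.38.

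The 4E-binding proteins keep eIF4E from the scaffold. EIF4EBP2 (ENSG00000148730.6, GRCh37 chromosome 10, 72164135 to 72188374) was at 43.6, 40.9, 42.5, 42.5 and 37.6 RPKM with control siRNA and at 57.5, 53.8, 54.3, 56.2 and 49.1 RPKM after SRp55 siRNA. The lowest SRp55 siRNA library was above the highest control library. The means were 41.4 ± 2.35 and 54.2 ± 3.20 RPKM (SD, n = 5), a log2 fold change of 0.28 relative to the median tested gene. As deposited the change was 0.38, and the p-value tests that change (SE 0.09, limma adjusted p = 0.0392). The files hold 1 EIF4EBP2 transcript, of 7257 bases, so its gene level does not depend on how reads were shared among transcripts, and on summed reads it was called as well (0.32, limma adjusted p = 0.00454). The call was close to the threshold. With median-of-ratios scaling, which brings the median gene to 0.01 before the test, the change tested was 0.28. It was then not called (limma adjusted p = 0.0606), where 6.85% of all genes were called. With each library left out in turn the change was 0.24 to 0.30 and the limma adjusted p ran from 0.0283 to 0.0961, and 8 of the 10 left it above 0.05.

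EIF4EBP1, the best known member of the group, was at 29.5, 22.9, 22.4, 43.3 and 25.6 RPKM with control siRNA and at 58.1, 35.4, 34.2, 40.8 and 32.4 RPKM after SRp55 siRNA. Control replicate 4 was again within the SRp55 siRNA range, and the other 4 controls were below it (log2 fold change 0.38, SE 0.21, limma adjusted p = 0.203). With 1 library left out the change ran from 0.28 (without SRp55 siRNA replicate 1) to 0.49 (without control replicate 4, limma adjusted p = 0.0508). EIF4EBP3 was low, at 0.970, 3.50, 0.686, 0.0817 and 0 RPKM with control siRNA and at 0.134, 0, 0.311, 0.848 and 0.0814 RPKM after SRp55 siRNA. It overlaps ANKHD1 and a readthrough gene on the same strand, so its reads are uncertain. Set against EIF4E, the sum of the 3 binding protein genes was 0.815 ± 0.140 in control and 0.825 ± 0.145 in SRp55 siRNA libraries on RPKM (SD, n = 5), and 2.54 ± 0.268 against 2.89 ± 0.378 on reads, both as descriptions with no test. The ratio was higher with SRp55 siRNA in 3 of 5 pairs of equal number on RPKM and in 5 of 5 on reads. EIF4ENIF1, which carries eIF4E into the nucleus, was at 8.70 to 17.4 RPKM in 9 libraries and at 32.4 RPKM in control replicate 1.

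**Figure D4:**
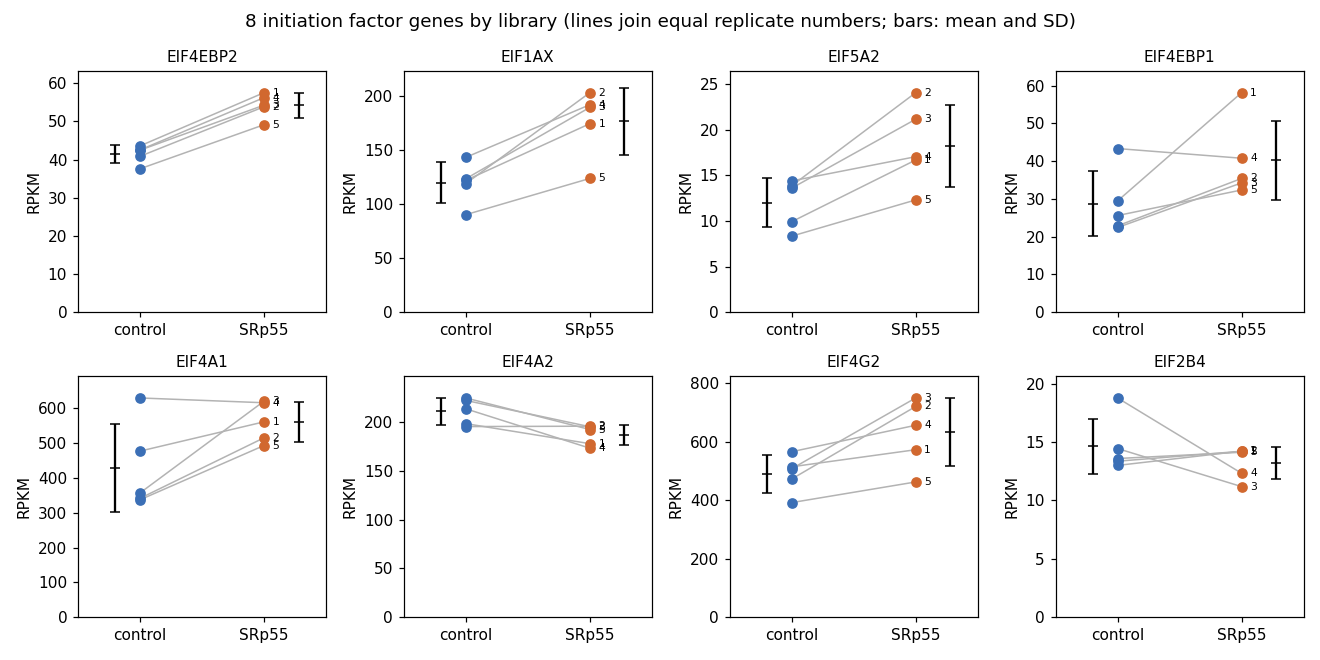
Levels in RPKM of 8 initiation factor genes in each library, with lines between control and SRp55 siRNA libraries of equal replicate number and bars for mean and SD of 5. EIF4EBP2 is higher in all 5 pairs with no overlap, EIF4A1 and EIF4EBP1 overlap through control replicate 4, and EIF4A2 is lower in 4 of 5 pairs.

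eIF5 makes eIF2 release its GTP at the start codon, eIF5B joins the large subunit, and eIF5A, which carries the modified lysine hypusine, helps ribosomes past stalls. None of the 4 tested genes was called. EIF5A was at 234, 187, 186, 298 and 184 RPKM with control siRNA and at 386, 273, 250, 280 and 221 RPKM after SRp55 siRNA. The groups overlapped, with control replicate 4 above 4 of the SRp55 siRNA libraries (log2 fold change 0.26, SE 0.18, limma adjusted p = 0.265). EIF5A2, its paralogue, was at 9.92, 13.9, 13.6, 14.4 and 8.34 RPKM with control siRNA and at 16.7, 24.1, 21.2, 17.1 and 12.3 RPKM after SRp55 siRNA. Only SRp55 siRNA replicate 5 fell within the control range, and all 5 pairs were higher. Its log2 fold change of 0.47 was the highest of the 47 genes (SE 0.20, limma adjusted p = 0.127). It passed with the replicate block (limma adjusted p = 0.0188) and on summed reads (0.46, limma adjusted p = 0.0149). With 1 library left out the change of EIF5A2 ran from 0.36 (without SRp55 siRNA replicate 2) to 0.55 (without SRp55 siRNA replicate 5, limma adjusted p = 0.0553). EIF5 itself, at 186 ± 51.3 and 217 ± 46.3 RPKM, and EIF5B, at 27.2 ± 1.28 and 29.1 ± 1.55 RPKM (SD, n = 5), had changes of 0.13 and -0.01. EIF6 keeps the large subunit from joining too early. It was at 73.6, 51.0, 48.8, 87.1 and 52.9 RPKM with control siRNA and at 93.1, 57.9, 50.8, 63.2 and 56.1 RPKM after SRp55 siRNA, with overlapping groups (log2 fold change -0.07, SE 0.20, limma adjusted p = 0.932).

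Across pairs of equal replicate number, initiation factor genes lay on both sides of the median tested gene. In pairs 1, 2, 3 and 5, 26 to 29 of the 47 were above the median tested gene of that pair, and in pair 4, which holds control replicate 4, 19 of 47 were. On the values as deposited, 9 of the 47 were higher with SRp55 siRNA in all 5 pairs, against 22.8% of all genes, and 0 were lower in all 5, against 9.38%. Of those 9, EIF2S2, EIF3A and EIF4H were below the median tested gene. With the replicate block 1784 genes were called in all, 9.39% of the tested genes being called higher, and 3 initiation factor genes (EIF4EBP2, EIF1AX and EIF5A2) were called, each of them higher.

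Usage is the share of 1 transcript in the summed RPKM of its gene, and calls needed both an adjusted p under 0.05 in limma's diffSplice F test and a shift of 10 points or more. Of 9915 genes tested 40 were called, 0.403%, and of the 43 initiation factor genes tested 0 were called. At an unadjusted p under 0.05 there were 2 of 43, EIF2B1 and EIF1AX, against 8.34% of all genes. A shift of at least 10 points without regard to the test was seen in 12 of 43, against 36.4% of all genes. The largest was in EIF3D, a subunit that can itself bind the cap of some mRNAs. Its transcript ENST00000541106.1 held 41.7%, 49.0%, 46.1%, 46.9% and 65.5% in control and 20.0%, 26.5%, 30.6%, 43.1% and 3.67% in SRp55 siRNA libraries. SRp55 siRNA replicate 4 alone was within the control range (mean shift -25.0 points, diffSplice adjusted p = 0.716), and the other transcripts that took up the difference varied from library to library. In EIF2B1 the shift was spread over transcripts: the short transcript ENST00000543940.1, annotated with no defined coding sequence, held 0%, 0%, 2.70%, 10.8% and 0% in control and 12.3%, 8.09%, 8.27%, 6.29% and 11.0% in SRp55 siRNA libraries. Only control replicate 4 reached the SRp55 siRNA range there. The main EIF2B1 transcript went from 54.3% ± 9.31 to 46.9% ± 8.08 (SD, n = 5; diffSplice adjusted p = 0.217). Without control replicate 4 the gene was called (0.00069), where 0.555% of all genes were called. In EIF1 the transcript ENST00000469308.1 held 16.9%, 28.9%, 30.7%, 21.4% and 18.2% in control and 0.761%, 22.2%, 24.6%, 17.1% and 0.649% in SRp55 siRNA libraries. The low mean of that transcript came from SRp55 siRNA replicates 1 and 5 (diffSplice adjusted p = 0.639).

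**Figure D5:**
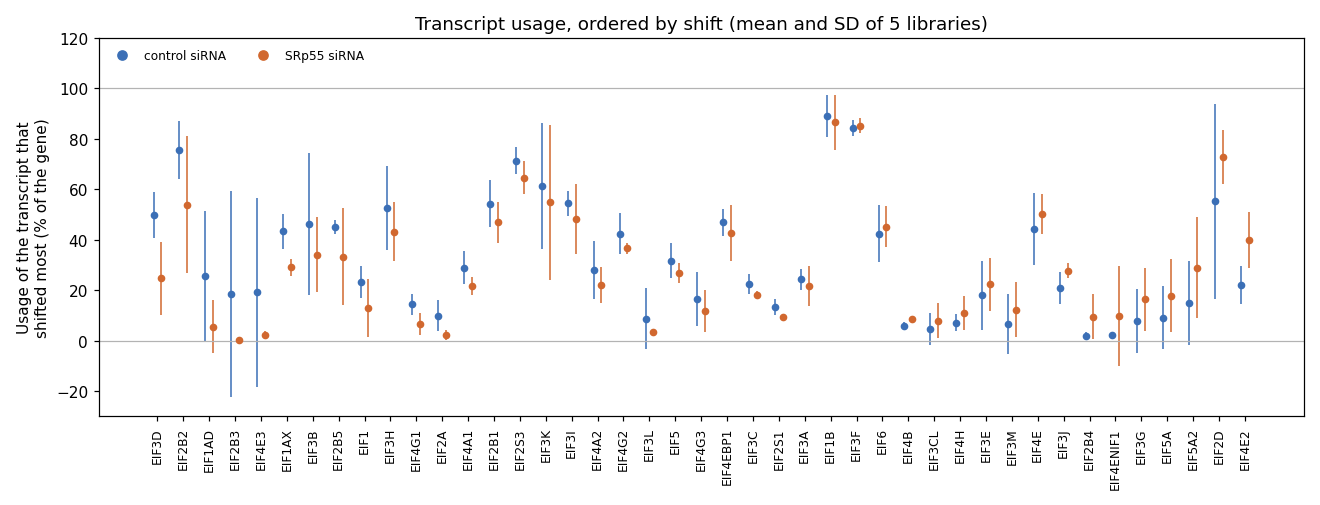
Usage in percent of the gene of the transcript with the largest shift in each of the 43 tested initiation factor genes, ordered by the shift, as mean and SD of 5 libraries. The SD bars overlap or are wide in most genes, EIF3D has the largest fall, and the grey lines mark 0% and 100%, which SD bars can cross.

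EIF4H, named after its values were seen, also has a cassette exon, and its usage was not called (diffSplice F test, unadjusted p = 0.803). Inclusion of the exon itself was not tested. Its short transcript ENST00000353999.6, which joins exon 4 to exon 6, held 72.8%, 81.0%, 85.6%, 75.5% and 86.8% in control and 73.9%, 73.5%, 85.0%, 76.9% and 84.7% in SRp55 siRNA libraries. The long transcript with the exon held 11.1% ± 3.70 and 7.89% ± 2.71 (SD, n = 5). The short EIF4H form thus made up most of the gene in all 10 libraries.

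Transcripts without a coding annotation, such as those with a retained intron or marked for nonsense-mediated decay, were set against the coding transcripts of each gene as a log2 ratio. Of 8172 genes tested 2 were called in limma, 0.0245%, and of the 40 initiation factor genes tested 0 were called. At an unadjusted p under 0.05 there were 2 of 40, against 6.09% of all genes. The ratio was higher with SRp55 siRNA in 30 of 40, against 61.8% of all genes, and the median change was 0.26 against 0.14 over all genes, on the log2 scale. The 2 with the smallest p were EIF2B1, where the non-coding share was 3.16% ± 5.05 in control and 9.87% ± 2.73 in SRp55 siRNA libraries (SD, n = 5; limma adjusted p = 0.773), and EIF4G3, with 3.39% ± 1.87 and 7.27% ± 3.02 (adjusted p = 0.779). EIF5 had a high share in both groups, 47.4% ± 4.63 and 54.3% ± 3.01.

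The genes around initiation were counted by list, with the same test over all 13630 genes, where 3.76% were higher and 1.25% lower. Elongation factors (9 tested), termination and recycling factors (8) and mTOR and MAP kinase control of cap binding (16) held 0 called genes each. At an unadjusted p under 0.05 these lists held EEF1B2, then PELO, ABCE1 and GSPT2, then MKNK2 and PDCD4, all higher. That threshold was passed by 21.9% of all genes. With the replicate block, where 9.39% of all genes were higher, the elongation and termination lists held 1 higher gene each. On summed reads, where 17.2% of all genes were called, the 3 lists held 1 higher gene (EEF1B2) and 2, 1 and 1 lower genes in this order. Among 12 genes of eIF2alpha kinases, phosphatases and their cofactors, PPP1R15B was lower and 11 were not called. PPP1R15B, the constitutive partner that directs phosphatase 1 to eIF2alpha, fell from 25.5 ± 3.06 to 14.2 ± 2.50 RPKM (SD, n = 5; log2 fold change -0.94, limma adjusted p = 0.00998), and its groups did not overlap. On summed reads 3 of the 12 were lower, PPP1R15B, the eIF2alpha kinase gene EIF2AK4 and IMPACT. Among 15 tested targets of the integrated stress response 2 were higher and 13 were not called. PSAT1, an enzyme of serine synthesis, rose from 10.8 ± 1.56 to 20.9 ± 3.80 RPKM (0.80, limma adjusted p = 0.009), and CHAC1, which degrades glutathione, from 1.93 ± 0.920 to 3.88 ± 0.727 RPKM (0.81, limma adjusted p = 0.0472; SD, n = 5). In the fit blocked on replicate number 5 of the 15 were higher, and on summed reads 5 were higher and 1 was lower. Among 13 poly(A)-binding and helper genes 1 was higher: PABPC4, a poly(A)-binding protein, rose from 38.8 ± 12.7 to 77.8 ± 25.3 RPKM (0.88, limma adjusted p = 0.0457; SD, n = 5). The fit blocked on replicate number called PABPC1 higher as well (limma adjusted p = 0.034) and DHX29, a helicase of scanning, lower (0.0273), and on summed reads 2 of the 13 were higher and 2 lower. The list medians lay between -0.12 and 0.20 relative to the median tested gene.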

How the data were processed

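Polyadenylated RNA of 10 EndoC-βH1 libraries was sequenced on an Illumina HiSeq instrument per the labels' protocols. The submitters' processing notes name TopHat and the build GRCh37 (hg19). What program counted reads per transcript, with which annotation and strand setting, is not given in the sources. The deposited files list 155130 transcripts with an estimated, usually fractional read count, a length and an RPKM value in 1 text field. Because of that field the values were analysed as RPKM, and estimated reads, scaled to the assigned reads of each library, served as an alternative. Summed RPKM weighs a read in a short transcript more than one in a long transcript, which summed reads do not.

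Symbols and biotypes came from GENCODE 44 (GRCh38) by Ensembl ID, which matched 95.0% of genes and 92.4% of transcripts. Gene coordinates are those of the deposited files. Gene sums were tested with limma 3.58.1 (R 4.3.3; trend and robust options) on log2(RPKM + 0.5) where the mean over libraries reached 0.5 RPKM, with no block. On this scale changes of low genes are understated. Usage was tested over transcripts that reached 0.5 RPKM and 5% of their gene on average. The non-coding to coding ratio was tested in protein-coding genes whose transcripts of other annotation averaged 0.5 RPKM or more, with 0.5 RPKM added to both sums. The tests were also run on simulated data, with independent noise in each library and no pairing.

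The members, lists and tests were chosen with earlier results of these data known. Values in every library are given for the 8 genes with the smallest p in expression and the 4 with the smallest p in usage, for the gene with the highest mean of each complex, and for EIF2S1, EIF4E, EIF4G1, EIF5A and EIF4EBP1. Lists are given by counts, with up to 2 called members each. Alternatives were another pseudocount (0.1 or 1), other filters, median-of-ratios scaling, summed reads, limma without the trend and robust options, a replicate block and each library left out. Groups and replicate numbers came from the sample titles. Over tested genes, deviations from the group mean correlated at 0.13 to 0.41 between libraries of equal number and at 0.12 or less otherwise, and 10 of 10 libraries correlated best with their own number, so equal numbers were treated as pairs in the block.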

Additional observations from a re-analysis of the deposited data

Results flagged for a closer look

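In 11 of the 100 groups of 5 libraries (50 genes in 2 groups), 1 library stood apart from the other 4: its gap to the nearest of them, divided by the whole range of the group, was above Dixon's 95% critical value of 0.710. Chance flags about 1 in 20 groups of independent, normally distributed values, but these genes share the same libraries. The share flagged over all genes was not computed, so the count cannot be read as particular to initiation factor genes. Control replicate 4 stood apart in 3 genes: EIF2D at 69.9 RPKM against 13.3 to 15.3 in the other controls, EIF2B1 at 38.1 RPKM against 21.6 to 25.8, and EIF2B4 at 18.8 RPKM against 13.0 to 14.4. SRp55 siRNA replicate 5 was low in 3 genes: EIF3H at 117 RPKM against 177 to 195 in the other SRp55 siRNA libraries, EIF4B at 105 RPKM against 128 to 137, and EIF4E at 80.1 RPKM against 124 to 129. Control replicate 2 was high for EIF4E3, at 31.8 RPKM against 4.83 to 9.68, and for EIF4EBP3, at 3.50 RPKM against 0 to 0.970. Control replicate 1 was high for EIF4ENIF1, at 32.4 RPKM against 9.10 to 12.3. SRp55 siRNA replicate 1 was high for EIF3F, at 142 RPKM against 72.8 to 80.7. SRp55 siRNA replicate 4 was high for EIF4E1B, at 0.837 RPKM against 0.239 to 0.395.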

How the results depend on the processing

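The count of initiation factor genes called in expression, 1, was 3 on summed reads and 3 with the replicate block, and 0 to 4 with 1 library left out. It stayed at 1 with median-of-ratios scaling, where the gene called was EIF1AX and not EIF4EBP2, and at 1, EIF4EBP2, under the other pseudocounts, filters and limma options. Over all genes, 684 were called with RPKM sums, 1784 with the replicate block, 2340 on summed reads (995 higher and 1345 lower), 933 under median-of-ratios scaling (433 higher and 500 lower), and 259 (without control replicate 2) to 1085 (without control replicate 4) with 1 library left out. The 4 genes called without control replicate 4 were EIF2B1, EIF4EBP2, EIF4A1 and EIF1AX, and the 2 without SRp55 siRNA replicate 5 were EIF4EBP2 and EIF1AX. Usage calls over all genes, 40, fell to 14 at a mean of 2 RPKM and 10% usage and ran from 24 to 55 with 1 library left out, and those of initiation factor genes from 0 to 1, EIF2B1 without control replicate 4. Calls for the non-coding to coding ratio over all genes, 2, were 0 with the replicate block. Among the 47 tested genes 6 had another sign on summed reads: EIF2S1 (-0.0050), EIF2S2, EIF2B2, EIF3B, EIF3CL and EIF5B. Among genes given by library, EIF3L ran from -0.033 to 0.097 with 1 library left out, and EIF6 was 0.0069 with no filter on low values and ran from -0.17 to 0.013 with 1 library left out. For initiation factor genes the replicate block changed no other call in expression, usage or the non-coding ratio. The cause of these differences was not tested.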
